A study of Mus musculus with 6 samples.

Results

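The 38 genes described here are type I interferon-stimulated genes of the mouse, and each was found once by symbol among the 54532 genes of the deposited count and FPKM tables. They were followed in RNA-seq libraries of CD4+ T cells from the spleen of wild-type C57BL/6J mice, all of which drank dextran sulfate sodium (DSS), a sulfated polysaccharide that injures the colonic epithelium and causes colitis. The 3 Akkermansia libraries came from mice also given Akkermansia muciniphila, a mucin-degrading gut bacterium, every day, and the 3 PBS libraries came from mice given phosphate-buffered saline (PBS). The labels state neither the age of the mice nor how the T cells were purified, and they put all 6 libraries in batch 1. In each group the description of library 2 speaks of CD5+ and that of library 3 of CD6+ T cells, although every library's cell type is entered as CD4+. The labels do not say that replicates came from separate mice, so the p-values measure only the spread between these libraries, which may be technical.

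Type I interferons (interferon alpha and beta) bind a receptor of the IFNAR1 and IFNAR2 chains, which activates the kinases JAK1 and TYK2. The signal passes to the transcription factor complex ISGF3, which includes STAT2 and IRF9. ISGF3 binds an interferon-stimulated response element (ISRE) near the start of its target genes, whose products sense foreign nucleic acid, block viral translation and replication, and mark proteins with the ubiquitin-like ISG15. T cells carry the receptor and express these genes.

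The ISRE core was looked for in the promoters of these genes, because nearly all of the 38 transcripts kept a common order across the PBS libraries. RefSeq promoter windows of GRCm38.p6, from 250 bases before to 50 bases after a transcript start, matched 30 of the 38 genes with 35 windows. The core, GAAA then any 2 bases then GAAA, read on both strands, was present in 17 of the 35 windows (48.6%) and in 16 of the 30 genes, against 3.44% of the 32851 windows in the whole table. Overlapping matches were each counted. A match describes these letters only and is not evidence of binding. The 5 windows printed here were chosen after the values were seen: that of Isg15, which holds 3 overlapping matches from position -78, -72 and -66, those of Ifit3 and its paralogue Ifit3b, which had the widest spread among IFIT genes, and those of the paralogues Oas1a and Oas1g. Each is printed 5′ to 3′ on the gene's strand, with matches to the core in capitals and the last base before the start counted as -1.
Isg15, chr4:156200769-156201068, minus strand: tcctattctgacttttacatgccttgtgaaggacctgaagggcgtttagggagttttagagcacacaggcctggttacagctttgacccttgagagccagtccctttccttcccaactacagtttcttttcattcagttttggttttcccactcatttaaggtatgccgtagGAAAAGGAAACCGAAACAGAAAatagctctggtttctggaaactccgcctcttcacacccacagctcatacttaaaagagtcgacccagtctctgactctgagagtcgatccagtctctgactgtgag
Ifit3, chr19:34583279-34583578, plus strand: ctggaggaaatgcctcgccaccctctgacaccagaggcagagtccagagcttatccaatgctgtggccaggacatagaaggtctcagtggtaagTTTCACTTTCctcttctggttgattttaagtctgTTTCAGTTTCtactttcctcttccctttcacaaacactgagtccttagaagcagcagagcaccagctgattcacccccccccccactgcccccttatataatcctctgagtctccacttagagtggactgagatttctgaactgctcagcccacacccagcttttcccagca
Ifit3b, chr19:34607707-34608006, plus strand: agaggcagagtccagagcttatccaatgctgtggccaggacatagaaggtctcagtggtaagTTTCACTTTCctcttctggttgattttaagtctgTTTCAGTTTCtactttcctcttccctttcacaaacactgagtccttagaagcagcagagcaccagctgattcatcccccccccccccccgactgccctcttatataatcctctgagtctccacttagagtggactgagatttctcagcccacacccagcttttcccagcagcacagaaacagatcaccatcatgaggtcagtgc
Oas1a, chr5:120907476-120907775, minus strand: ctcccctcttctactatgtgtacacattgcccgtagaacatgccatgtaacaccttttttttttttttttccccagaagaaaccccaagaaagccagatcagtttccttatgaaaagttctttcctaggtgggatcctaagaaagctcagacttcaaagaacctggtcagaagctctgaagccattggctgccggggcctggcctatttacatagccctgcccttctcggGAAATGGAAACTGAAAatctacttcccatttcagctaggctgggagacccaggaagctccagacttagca
Oas1g, chr5:120887564-120887863, minus strand: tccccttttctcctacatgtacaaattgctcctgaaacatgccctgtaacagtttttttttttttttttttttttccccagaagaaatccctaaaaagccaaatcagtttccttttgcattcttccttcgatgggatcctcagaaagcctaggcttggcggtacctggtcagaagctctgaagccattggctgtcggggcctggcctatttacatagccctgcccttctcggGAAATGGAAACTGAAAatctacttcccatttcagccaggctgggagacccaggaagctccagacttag
Aligned end to end, the 300-base Ifit3 and Ifit3b windows had 259 identical bases in 340 columns, gaps included (76.2%). They carried the same pair of matches, at -156 and -122 in Ifit3 and at -188 and -154 in Ifit3b. The Oas1a and Oas1g windows had 261 identical bases in 306 columns (85.3%). Both placed 2 overlapping matches just before the start, from -20 and -14 in Oas1a and from -18 and -12 in Oas1g. The windows of a pair are offset, and overhanging ends count as differences, so the 2 percentages do not rank the pairs by likeness. The windows of Oasl2 and Ifi44 held no match, and these 2 genes ranked with the Ifit3 pair in their spread. Near matches were not counted in any window, and that of Ifi44 held stretches that differed from the core in 1 letter. The PBS 2 to PBS 3 ratio of levels had a median of 3.25 in the 16 genes with a match (1.72 to 8.82) and of 2.25 in the 14 without (1.64 to 7.78).

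No interferon-stimulated gene passed the test between Akkermansia and PBS. By edgeR's quasi-likelihood test, adjusted over all 15138 genes tested, 0 of 38 were higher and 0 of 38 lower, against 7.32% of all genes higher and 8.28% lower. 1 gene of the 38, Oas1g, had an unadjusted p under 0.05, and limma-voom called 0 of the 38 and DESeq2 0 of the 37 for which it gave an adjusted p. The adjusted p-values lay between 0.0789 and 0.999. The median log2 fold change of the 38 genes was -0.36, against -0.01 for all genes tested, with 30 genes below 0 and 8 above. All 38 genes passed the filter on low counts.

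What the genes did show was a wide and shared spread among the 3 PBS libraries. PBS 2 held the highest level of all 6 libraries in 38 of 38 genes, against 19.3% of all genes tested, and PBS 3 the lowest in 33 of 38, against 16.3%. The PBS libraries ran in the order PBS 2, PBS 1, PBS 3 in 36 of the 38 genes, against 18.6% of all genes tested; the exceptions were Oas1g and Phf11d. The level in PBS 2 was 1.64 to 8.82 times that in PBS 3, with a median of 2.98, and reached at least 2 times in 33 genes. All 3 Akkermansia libraries lay inside the PBS range in 34 of 38 genes, against 16.8% of all genes tested. The summed level of the 38 genes, as CPM (read counts relative to library size after TMM scaling), was 3648, 4485 and 4373 in Akkermansia 1, 2 and 3, and 4192, 6899 and 2799 in PBS 1, 2 and 3.

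**Figure D1:**
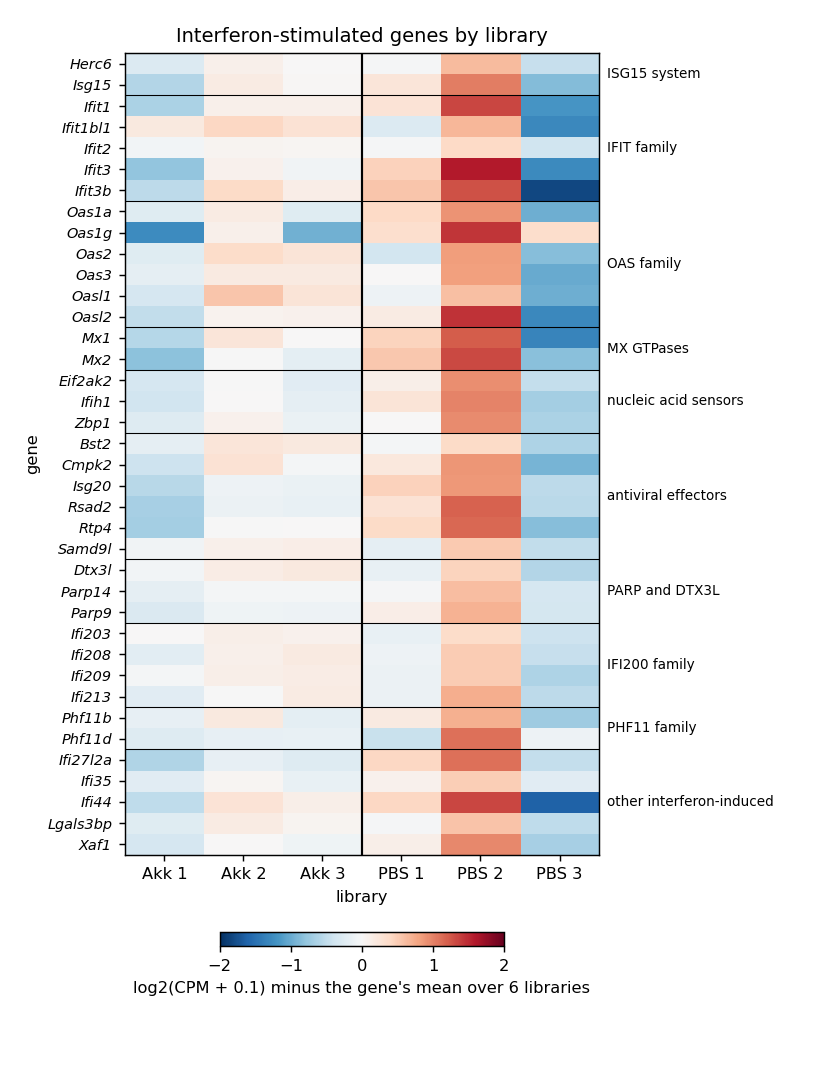
Level of each of the 38 interferon-stimulated genes (rows, grouped by role) in the 3 Akkermansia and 3 PBS libraries (columns), as log2(CPM + 0.1) minus the gene's mean over the 6 libraries. PBS 2 is the highest library in all 38 rows and PBS 3 the lowest in 33.

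The 6 libraries held 15032257 to 16677923 counts, so that 3 counts correspond to 0.181 to 0.2 CPM. Of 8 T cell genes, Cd4, Cd3e, Cd3d, Cd3g, Trac, Cd5, Cd28 and Lck, all were abundant in every library, and their summed level was 3984 to 4206 CPM with Akkermansia, against 3758 to 3922 CPM in the PBS libraries. By edgeR 4 of the 8, Cd4, Cd3e, Cd5 and Lck, were called higher with Akkermansia, against 7.32% of all genes. Cd28 was called lower (edgeR adjusted p = 0.00163), against 8.28% of all genes. It had 348.5, 287.2 and 339 CPM in Akkermansia 1, 2 and 3, and 681.6, 489.8 and 612.5 CPM in PBS 1, 2 and 3. Cd5 itself was at 530.2, 435 and 492 CPM with Akkermansia and at 378, 408 and 370.4 CPM with PBS. Markers of B cells were higher with Akkermansia in 13 of 13 genes, with sums of 1274 to 1447 CPM against 881 to 913 CPM with PBS, and both CD8 markers were higher. The groups parted on the first principal component (41.8% of the variance). Scores on the second (20.7%) were 37.1 in PBS 2, -13.4 in PBS 1 and -27.7 in PBS 3. PBS 1 thus lay between the others, as in the interferon-stimulated genes. The component was formed with these genes included and its sign is arbitrary, so this is not separate support for their order.

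Isg15 and Herc6 form the ISG15 system. Isg15 encodes the ubiquitin-like modifier and Herc6 the ligase that attaches it in mice. Isg15 had 20.0, 34.0 and 30.8 CPM in Akkermansia 1, 2 and 3, and 35.9, 61.5 and 16.6 CPM in PBS 1, 2 and 3. All 3 Akkermansia libraries thus fell between PBS 3 and PBS 1. The log2 fold change of Isg15 was -0.42 ± 0.56 (SE, 95% interval -1.94 to 1.09, edgeR adjusted p = 0.685). Herc6 varied less, with 79.5, 104 and 96.6 CPM in Akkermansia 1, 2 and 3 and 95.1, 149.8 and 70.3 CPM in PBS 1, 2 and 3 (log2 fold change -0.17).

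The IFIT genes encode proteins that form complexes with each other, of which IFIT1 binds viral RNA lacking the host's cap methylation. The family included the steepest difference among PBS libraries, that of Ifit3b. Ifit3 had 34.5, 63.5 and 56.8 CPM in Akkermansia 1, 2 and 3, and 81.9, 179 and 24.7 CPM in PBS 1, 2 and 3. Ifit3b, the neighbouring copy, had 8.47, 16.0 and 13.4 CPM with Akkermansia and 18.1, 29.7 and 3.37 CPM with PBS. Ifit1 had 36.0, 60.1 and 59.5 CPM with Akkermansia and 67.0, 142 and 24.5 CPM with PBS. In these 3 genes PBS 2 stood above and PBS 3 below every Akkermansia library. The ratio of PBS 2 to PBS 3 was 8.82 for Ifit3b, 7.24 for Ifit3 and 5.79 for Ifit1, but 3.88 for Ifit1bl1 and 1.74 for Ifit2. Ifit2 was the steadiest member of the family, at 97.2, 105 and 104 CPM with Akkermansia and 99.5, 134 and 77.1 CPM with PBS. Ifit1bl1 had 87.9, 103 and 94.1 CPM with Akkermansia and 63.7, 122 and 31.5 CPM with PBS, and its log2 fold change of 0.39 ± 0.54 (SE) was the highest of the 38 genes. The other 4 IFIT genes had log2 fold changes from -0.88 to -0.02, and none of the 5 passed the test. Reads from Ifit3 and Ifit3b, which resemble each other closely, could have been divided between them by the counting.

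The OAS enzymes make 2′-5′ linked oligoadenylates that activate RNase L, and the related OASL1 lacks this activity. Oasl2 had 36.9, 54.5 and 55.4 CPM in Akkermansia 1, 2 and 3, and 58.0, 142 and 21.3 CPM in PBS 1, 2 and 3. Oas2 had 123, 188 and 174 CPM with Akkermansia and 112, 258 and 80.2 CPM with PBS, and Oas3 105, 134 and 134 CPM with Akkermansia and 119, 209 and 58.7 CPM with PBS. In Oas2 and Oas3 the Akkermansia mean (162 and 125 CPM) lay close to the PBS mean (150.1 and 129 CPM), with SDs of 34.1 and 17.1 CPM against 94.8 and 75.6 CPM. Oas1a averaged 43.7 ± 7.5 CPM in Akkermansia libraries and 57.3 ± 32.0 CPM in PBS libraries (SD, n = 3 each), and Oasl1 averaged 35.0 ± 10.4 and 30.1 ± 15.5 CPM.

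Oas1g was the only gene of the 38 whose groups did not overlap, a state found in 34.9% of all genes tested. It was sparsely counted, with 4, 12 and 5 counts in Akkermansia 1, 2 and 3 and 16, 33 and 16 counts in PBS 1, 2 and 3. Its log2 fold change was -1.56 ± 0.56 (SE), which did not pass the edgeR test (adjusted p = 0.0789). It passed with no filter on low counts (adjusted p = 0.0498), where 5.28% of all genes were lower, and with a replicate block (adjusted p = 0.0449), where 8.81% were. Its paralogue Oas1a had 384 to 1327 counts per library, and reads could have been shared between the copies.

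The dynamin-like MX proteins trap viral ribonucleoproteins, although the Mx1 protein of C57BL/6 mice is not functional. Mx1 had 40.1, 70.3 and 59.6 CPM in Akkermansia 1, 2 and 3, and 81.1, 137 and 23.9 CPM in PBS 1, 2 and 3. Mx2 had 11.8, 20.9 and 18.3 CPM with Akkermansia and 30.7, 52.7 and 11.7 CPM with PBS. Both genes were highest in PBS 2, 5.76 and 4.50 times above PBS 3, and their log2 fold changes of -0.51 and -0.90 did not pass the test (adjusted p = 0.701 and 0.434).

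**Figure D2:**
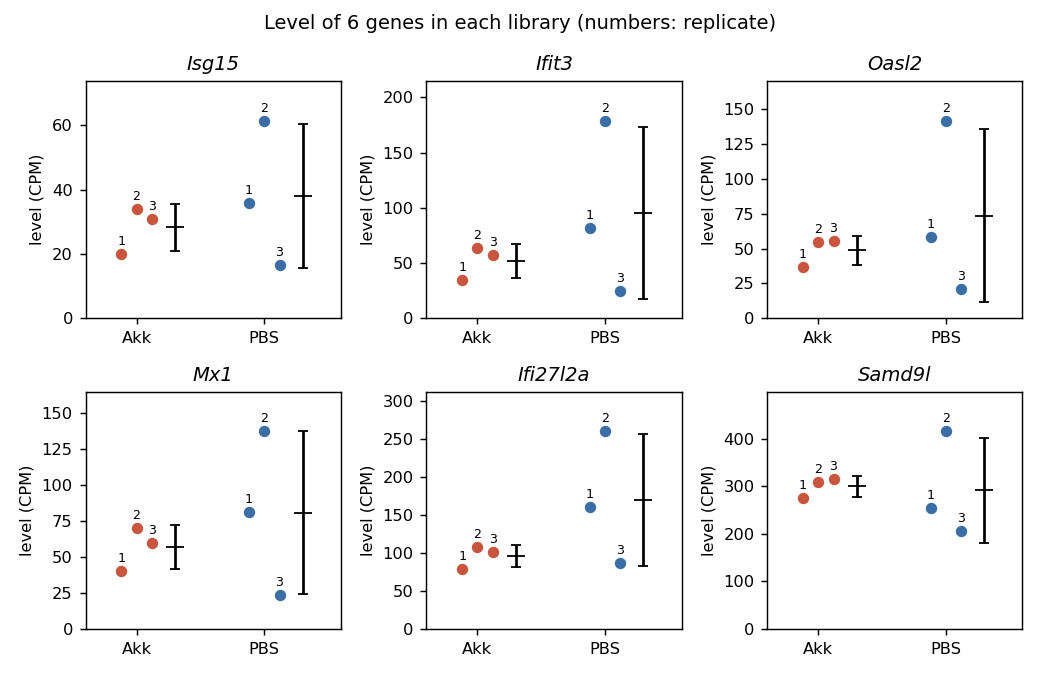
Level in CPM of 6 interferon-stimulated genes in each library, with Akkermansia (Akk) left of PBS, replicate numbers beside the points and the mean ± SD of 3 libraries at the right of each group. In all 6 genes PBS 2 is above every other library, as in Ifit3 with 179 CPM against 24.7 CPM in PBS 3, and the SD is wider with PBS than with Akkermansia.

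Among the sensors, Zbp1 detects Z-form nucleic acid, Ifih1 encodes the RNA helicase MDA5 and Eif2ak2 the kinase PKR, which halts translation. Zbp1 had 144, 183 and 158 CPM in Akkermansia 1, 2 and 3, and 173, 332 and 112 CPM in PBS 1, 2 and 3. Ifih1 averaged 68.7 ± 9.20 CPM with Akkermansia and 98.5 ± 53.3 CPM with PBS, and Eif2ak2 averaged 47.7 ± 5.51 and 67.0 ± 33.2 CPM (SD, n = 3 each). The 3 log2 fold changes lay between -0.52 and -0.35, and none passed the test.

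Antiviral effectors covered a wide range of levels. Bst2, the tetherin that holds budding virions at the cell surface, had 69.1, 92.2 and 89.7 CPM in Akkermansia 1, 2 and 3, and 76.0, 102 and 50.9 CPM in PBS 1, 2 and 3. Samd9l, a translation inhibitor and growth suppressor, had 275, 309.9 and 316 CPM with Akkermansia and 255, 416 and 205 CPM with PBS. Both were similar in mean, with log2 fold changes of 0.13 ± 0.29 and 0.04 ± 0.29 (SE), and their intervals of -0.64 to 0.91 and -0.74 to 0.82 leave room for a change in either direction. Rsad2, the radical SAM enzyme viperin, averaged 34.8 ± 6.95 CPM with Akkermansia and 58.9 ± 33.9 CPM with PBS. Cmpk2, a nucleotide kinase encoded next to it, averaged 40.0 ± 9.53 CPM in Akkermansia libraries and 48.0 ± 27.0 CPM in PBS libraries (SD, n = 3 each). Rtp4, a chaperone of G protein-coupled receptors, averaged 34.0 ± 8.44 CPM with Akkermansia and 53.2 ± 32.6 CPM with PBS, and Isg20, a 3′ exonuclease, 29.0 ± 4.82 and 44.9 ± 19.5 CPM. Isg20 had a log2 fold change of -0.63 with all libraries (adjusted p = 0.376) and of -0.93 without PBS 3 (adjusted p = 0.00535). PBS 3 was the lowest PBS library for Isg20, so a fall on leaving it out followed from the choice.

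Parp9 and Parp14 encode proteins of the PARP (ADP-ribosyltransferase) family and Dtx3l a ubiquitin ligase, and PARP9 and DTX3L act as a complex. All of these genes were less spread within PBS than the MX genes and the IFIT genes other than Ifit2. Parp14 had 317, 346 and 347 CPM in Akkermansia 1, 2 and 3, and 351, 547 and 282 CPM in PBS 1, 2 and 3. The PBS 2 to PBS 3 ratios were 1.94, 2.05 and 2.05 for Parp14, Parp9 and Dtx3l. Their log2 fold changes were -0.22, -0.37 and 0.14, none past the test.

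The IFI200 genes encode nuclear DNA-binding proteins in 1 cluster, and by length-scaled level (FPKM) 3 of them were among the 6 highest of the 38 genes. Ifi209 averaged 81.9 FPKM over the 6 libraries, Ifi203 77.0 FPKM and Ifi213 54.6 FPKM. In CPM, Ifi203 had 513, 553 and 541 in Akkermansia 1, 2 and 3, and 460, 655 and 381 in PBS 1, 2 and 3. Ifi209 had 275, 307.5 and 315 CPM with Akkermansia and 260.2, 402 and 185 CPM with PBS. Ifi208 and Ifi213 kept the same order among PBS libraries, with log2 fold changes of -0.0003 and -0.14. Without PBS 2, Ifi203 was higher with Akkermansia, with a log2 fold change of 0.35 (adjusted p = 0.0133) against 0.10 with all libraries (adjusted p = 0.783). PBS 2 held its highest level, so a rise on leaving that library out followed from the choice. These genes resemble each other, so shared reads could have been counted for more than 1 of them.

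The remaining genes repeated the pattern at other levels. Ifi27l2a, a small mitochondrial membrane protein gene, was the most abundant per length, at 171, 232 and 219.6 FPKM in Akkermansia 1, 2 and 3, and 343, 564 and 186 FPKM in PBS 1, 2 and 3. Its log2 fold change, on counts, was -0.82 ± 0.46 (SE, adjusted p = 0.33). Ifi44 had 14.8, 25.6 and 22.9 CPM with Akkermansia and 28.3, 53.4 and 6.87 CPM with PBS, and its PBS 2 to PBS 3 ratio of 7.78 was next to that of Ifit3b. Phf11b averaged 56.3 ± 9.12 CPM with Akkermansia and 65.3 ± 29.7 CPM with PBS, Xaf1, a pro-apoptotic antagonist of XIAP, 54.6 ± 6.41 and 72.9 ± 40.1 CPM, and Lgals3bp, a secreted galectin ligand, 134 ± 18.3 and 141 ± 52.8 CPM (SD, n = 3 each). Ifi35 had the smallest PBS 2 to PBS 3 ratio of the 38 genes, 1.64, with 44.2 ± 4.06 CPM with Akkermansia and 52.7 ± 13.2 CPM with PBS. Phf11d, a paralogue of Phf11b at 3.22 to 3.51 CPM with Akkermansia, had 2.84, 8.47 and 3.62 CPM in PBS 1, 2 and 3, so that PBS 2 alone stood apart.

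The spread within the PBS group was larger than that within the Akkermansia group in 37 of the 38 genes (97.4%), against 62.3% of all genes tested; Oas1g was the exception. The median SD of log2 CPM was 0.22 within Akkermansia and 0.79 within PBS for these genes, against 0.13 and 0.18 for all genes tested. Ranked by SD within PBS, all 38 genes lay in the top 25% of genes tested, 26 in the top 10% and 21 in the top 5%. The 4 widest were Ifit3b (SD 1.62), Ifi44 (1.5), Ifit3 (1.44) and Oasl2 (1.37). The smaller spread within the Akkermansia group was shared as well. Akkermansia 1 was the lowest of its group in 37 of 38 genes, against 34.4% of all genes tested, and Akkermansia 2 the highest in 29, against 33.2%, with a median ratio of 1.31 between them and a range of 1.08 to 3.17. Across the 38 genes, those with a larger log2 difference between PBS 2 and PBS 3 also had a larger one between Akkermansia 2 and Akkermansia 1 (Pearson r = 0.626, Spearman rho = 0.7, across genes, which are not independent replicates, with no test). The same correlations over all 15138 genes were 0.061 and 0.044, but over the 94 other interferon pathway genes tested they were 0.648 and 0.695. In those 94 genes the SD within PBS also exceeded that within Akkermansia in 94.7%, so both traits were also seen in the rest of the pathway. The values of a gene share its count depth and the scaling of each library.

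**Figure D3:**
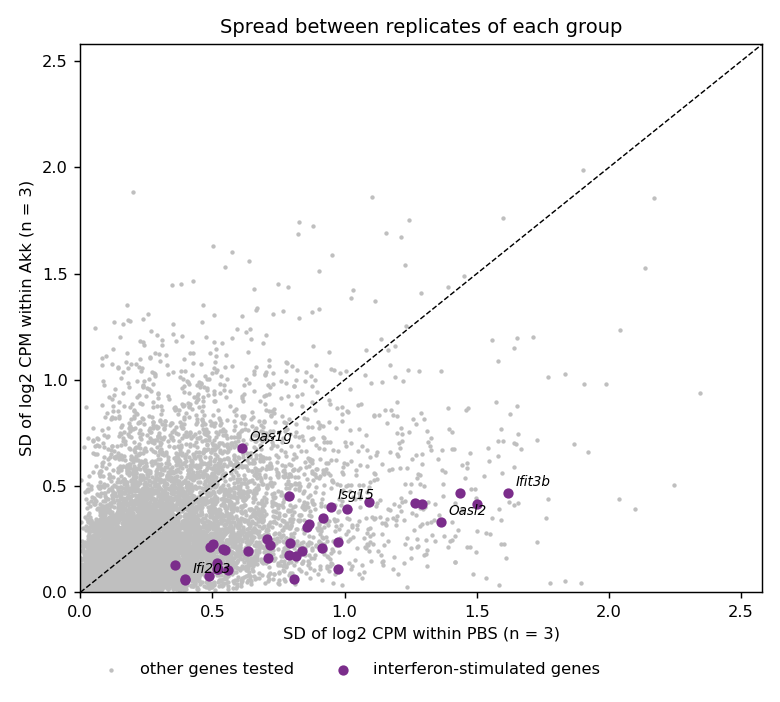
SD of log2 CPM between the 3 PBS libraries (x axis) and between the 3 Akkermansia libraries (y axis) for all 15138 genes tested, with the 38 interferon-stimulated genes in purple and the line of equal SD dashed. Of the 38 genes 37 lie below the line, and Ifit3b is farthest to the right at 1.62.

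The direction of the difference depended on which PBS libraries were kept. PBS 2 was the highest of its group in 38 of the 38 genes and PBS 3 the lowest in 36. The way each omission moved the fold changes thus followed from these levels. Without PBS 2 the median log2 fold change of the 38 genes was 0.18, with 27 genes above 0, and 2 were called higher by edgeR, Ifi203 and Samd9l (adjusted p = 0.0205), against 7.34% of all genes higher and 9.04% lower in that fit. Without PBS 3 the median was -0.63, with 37 genes below 0, and 3 were called lower, Isg20, Ifi35 (adjusted p = 0.0443) and Oas1a (adjusted p = 0.0478), against 8.02% of all genes lower and 8.31% higher. The median of all genes tested was -0.0056 and -0.0074 in these fits. In the 4 fits without PBS 1 or an Akkermansia library no gene of the 38 was called, and the medians lay between -0.44 and -0.22. The median SE of the log2 fold change was 0.46 for the 38 genes and 0.15 for all genes tested.

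**Figure D4:**
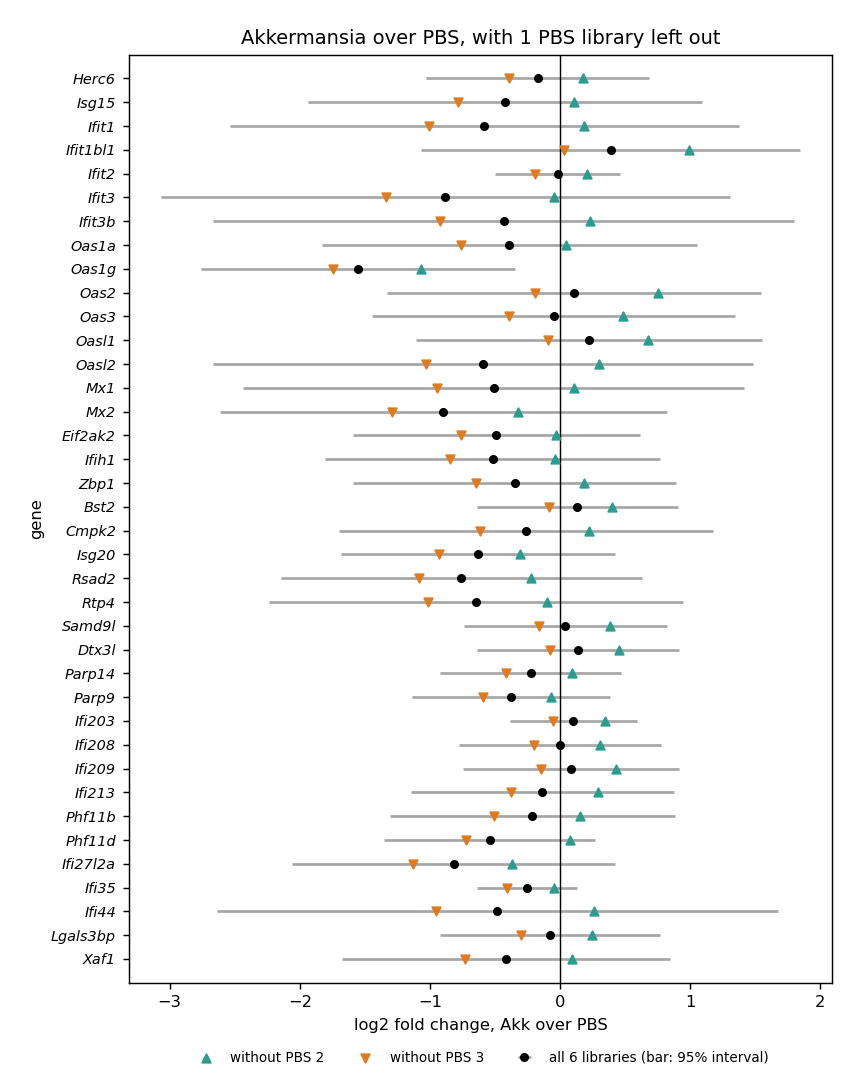
Log2 fold change, Akkermansia over PBS, of each of the 38 genes with all 6 libraries (black, bars 95% interval) and with PBS 2 (green) or PBS 3 (orange) left out. The green points have a median of 0.18 and the orange points one of -0.63.

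Upstream of these genes, transcripts of the receptor chains and of Jak1 varied little, while those of Stat2 and Irf9 followed the order of the PBS libraries. Ifnar1 had 228, 226 and 236 CPM in Akkermansia 1, 2 and 3, and 200.1, 224 and 210.1 CPM in PBS 1, 2 and 3, and Ifnar2 lay between 55.0 and 60.3 CPM in all 6. Jak1 had a log2 fold change of -0.07 ± 0.07 (SE), and the PBS 2 to PBS 3 ratios of Ifnar1, Ifnar2 and Jak1 were 1.07, 0.911 and 0.885. Stat2 had 118, 149 and 134 CPM with Akkermansia and 124, 196 and 99.2 CPM with PBS, and Irf9 had 131, 157 and 155 CPM with Akkermansia and 164, 204 and 130.1 CPM with PBS. Both are also induced by interferon, and their PBS 2 to PBS 3 ratios were 1.98 and 1.57. Irf7, the factor that amplifies interferon induction, had 112, 158 and 148 CPM with Akkermansia and 207, 331 and 98.7 CPM with PBS. Usp18, which removes ISG15 and damps the receptor, had 60.7, 98.6 and 76.9 CPM with Akkermansia and 65.6, 132 and 29.4 CPM with PBS (log2 fold change 0.06 ± 0.62, SE).

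**Figure D5:**
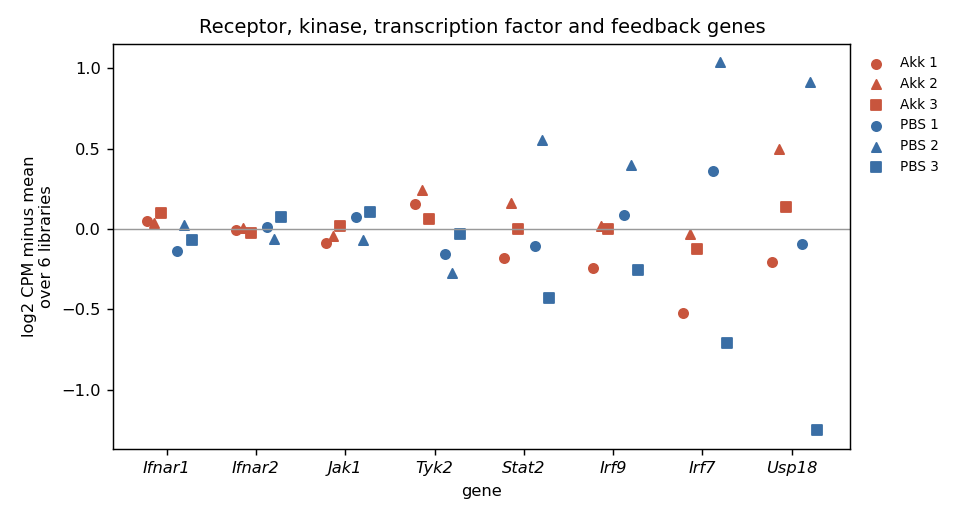
Log2 CPM minus its mean over the 6 libraries for receptor (Ifnar1, Ifnar2), kinase (Jak1, Tyk2), transcription factor (Stat2, Irf9, Irf7) and feedback (Usp18) genes, Akkermansia in red and PBS in blue. Within the PBS group the SD is 1.08 for Usp18 and 0.88 for Irf7, against 0.07 for Ifnar2.

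The other interferon pathway genes examined numbered 113, of which 94 passed the filter on low counts. Of these, 6 (6.38%) were higher and 4 (4.26%) lower with Akkermansia, against 7.32% and 8.28% of all genes. PBS 2 was the highest of the 6 libraries in 65 of the 94. Among 14 genes that sense nucleic acid or induce interferon 4 were higher and none lower, among them Tlr9, an endosomal DNA sensor that B cells also express, by 1.34 ± 0.20 (log2, SE, adjusted p = 0.000897), and Ticam1, the adaptor TRIF, by 0.63 ± 0.12 (adjusted p = 0.00368). Ptpn6, the phosphatase SHP-1, was higher by 0.68 ± 0.07 (adjusted p = 6.05e-05), while Apobec3, an antiviral deaminase, was lower (log2 fold change -0.39 ± 0.07, adjusted p = 0.0032) and the interferon gamma receptor chain Ifngr2 had a log2 fold change of -0.48 (edgeR adjusted p = 0.00534). The Ifngr2 call was lost when FPKM values were tested by limma-trend, with adjusted p = 0.0569 at a pseudocount of 1 and 0.0558 at 0.1. In the same libraries 13 of 13 B cell markers were higher, and their part in the changes of Tlr9 and Ptpn6 was not tested.

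The other 5 calls were lost without some single libraries. Tmem173, the adaptor STING, was higher (log2 fold change 0.32) but not without Akkermansia 2 or PBS 1. Ikbke and Tyk2 were higher by 0.33 and 0.30, Ikbke not without PBS 1 or any Akkermansia library (adjusted p up to 0.0664), and Tyk2 not without Akkermansia 1, Akkermansia 2 or PBS 1 (up to 0.112). Socs3, a feedback inhibitor of cytokine receptors, had a log2 fold change of -0.61, which passed in the fit without PBS 2 but in no other with a library left out (up to 0.117), nor with the replicate block (adjusted p = 0.0635). Cxcl10, a chemokine induced by interferon gamma, had -1.48 and passed only without PBS 3 (up to 0.163 in the others). In the list of 49 further interferon-stimulated genes, 0 were higher and 1, Apobec3, was lower, and their median log2 fold change was -0.05. Without PBS 2, 18 of the 94 other pathway genes were higher, against 7.34% of all genes, and without PBS 3, 17 of the 94 were lower, against 8.02% of all genes.

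Transcripts of the type I interferons themselves were at or near 0. Of 19 genes for interferons other than interferon gamma, 16 had no count in any library, which allows up to 0.181 to 0.2 CPM each (counting error only), and none passed the filter. Ifng, the type II interferon, had 23.4, 18.0 and 20.6 CPM in Akkermansia 1, 2 and 3, and 49.4, 25.3 and 17.2 CPM in PBS 1, 2 and 3. Ifng was thus highest in PBS 1, unlike the interferon-stimulated genes, and its log2 fold change of -0.57 ± 0.44 (SE) did not pass (adjusted p = 0.472). The 15 genes listed as responsive to interferon gamma summed to 2159, 2928 and 1763 CPM in PBS 1, 2 and 3. With Akkermansia 1, 2 and 3 the sums were 2265, 2391 and 2318 CPM. These sums kept the PBS order of the interferon-stimulated genes, and which interferon lay behind the spread was not tested.

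Markers of other cell types were read against the order PBS 2, PBS 1, PBS 3. B cell markers summed to 913, 909 and 881 CPM in PBS 1, 2 and 3. Plasmacytoid dendritic cells are a main source of type I interferon, and their markers other than Bst2 summed to 62.0, 53.7 and 74.3 CPM in Akkermansia 1, 2 and 3 and to 32.7, 34.6 and 28.9 CPM in PBS 1, 2 and 3, with 3 of the 5 called higher with Akkermansia. Tcf4, Ly6d and Ccr9 made up most of each sum, and whether plasmacytoid dendritic cells or other cells held these transcripts was not tested. Siglech, the defining receptor of plasmacytoid dendritic cells, was at 3.67, 1.40 and 3.25 CPM in Akkermansia 1, 2 and 3. In PBS 1, 2 and 3 it had 1.03, 1.38 and 0.491 CPM, from only 17, 21 and 8 counts. Siglech and Ccr9 thus ran in the order PBS 2, PBS 1, PBS 3, while Tcf4, Ly6d and Cox6a2 did not. The 6 conventional dendritic cell markers summed to 17.2, 22.7 and 15.9 CPM in PBS 1, 2 and 3, and the 10 monocyte and macrophage markers to 411, 496.5 and 495.6 CPM. The sum of the 9 neutrophil markers was lowest in PBS 2, with 35.0, 13.3 and 56.2 CPM in PBS 1, 2 and 3. It was 164.7, 104 and 74.3 CPM in Akkermansia 1, 2 and 3. Elane, Ly6g and Mpo had no count in PBS 2 (Mpo none in PBS 3 either). The 6 plasma cell markers summed to 714.5, 581 and 743 CPM in Akkermansia 1, 2 and 3 and to 332, 223 and 357 CPM in PBS 1, 2 and 3, again lowest in PBS 2 within that group; 0 were called higher and 2 lower with Akkermansia. Natural killer markers summed to 109, 93.5 and 70.4 CPM and erythroid markers to 409.7, 600.5 and 958 CPM in PBS 1, 2 and 3. The part of these cells in the spread was not tested, and in bulk RNA fewer cells of a type and less RNA per cell cannot be told apart. Mitochondrially encoded genes took 1.32, 1.69 and 1.59% of counts in PBS 1, 2 and 3, against 1.38 to 1.53% with Akkermansia.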

How the data were processed

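The analysis used 6 RNA-seq libraries, grouped 3 against 3 by their treatment entry. The authors deposited whole-number read counts for each gene, and a matching table of FPKM values, which the authors had scaled by gene length and library size. Libraries were poly(A)-selected, per the labels' protocols. The submitters' processing notes name the build GRCm39; which aligner, counter and strand setting made the counts is not stated.

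Counts were tested with edgeR 4.0.16 in R 4.3.3: filterByExpr (minimum count 10, minimum total 15), TMM scaling and the robust, two-sided quasi-likelihood F test, with Benjamini-Hochberg adjustment over 15138 genes and a threshold of 0.05. SDs of log2 CPM used a prior count of 2. Alternatives used DESeq2 1.42.0, limma 3.58.1, other scalings, filters and units, a block, and single libraries omitted. The script was first tested on simulated counts. Promoter windows were aligned with Biopython 1.88.

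The members and lists were chosen with earlier results of these data known. The naming rule took any called member, the 6 members highest in mean FPKM, the 4 with the largest SD within PBS, receptor and ISGF3 genes, Usp18 and called pathway genes; 1 gene it named is not reported here. Its rule for promoters required called members and gave none, so the promoters, and all other genes given by name, were chosen after their values were seen. Replicates were not duplicates: their chi-square per gene was at least 4.25.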

Additional observations from a re-analysis of the deposited data

How the results depend on the processing

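The count of interferon-stimulated genes past the threshold stayed at 0 higher and 0 lower with DESeq2, limma-voom, RLE size factors, library totals, a filter of 1 CPM in 3 libraries and limma-trend on FPKM. Oas1g had no adjusted p with DESeq2 and was removed by the 1 CPM filter, so these 2 settings judged 37 of the 38 genes. Oas1g alone became called lower with no filter on low counts (1 of 38, log2 fold change -1.54) and with the replicate block (1 of 38, adjusted p = 0.0449). Deviations of same-numbered libraries from their group means correlated at 0.0846, 0.0774 and 0.0303, against -0.0723 to 0.0021 for libraries of different numbers. The same-numbered values were the higher but were small, and the numbers were not taken to pair the libraries. The block moved the counts over all genes from 1108 to 1205 higher and from 1253 to 1333 lower. It ended the call of Socs3, leaving 3 other pathway genes lower against 4. Over the fits that leave out 1 library, the 38 genes had 0 to 2 higher and 0 to 3 lower, and their median log2 fold change ran from -0.63 to 0.18, from -0.36 with all libraries. All genes numbered 519 to 1287 higher and 623 to 1413 lower, and other pathway genes 3 to 18 higher and 2 to 17 lower. On log2(FPKM + 1) the counts over all genes were 468 higher and 527 lower, and on log2(FPKM + 0.1) 508 and 573, with 1 other pathway gene lower on each scale; with no filter 7 other pathway genes were lower. The median of the 38 genes was -0.18 with limma-voom and on both FPKM scales. The median SD within PBS, 0.79 on log2 CPM, was 0.79 with a prior count of 0.5 and 0.80 on log2(FPKM + 0.1).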

Other observations

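The genes that parted PBS 2 from PBS 3 the most were largely interferon-stimulated. Of 8862 genes with a mean of at least 10 CPM, the 30 with the largest log2 difference between PBS 2 and PBS 3 held 15 of the 38 genes described here and 7 other interferon pathway genes, among them Iigp1, Usp18, Ifi204 and Ms4a4c. This ranking was made after the values were seen and carries no test. The other 8 included Gbp10 and Tgtp2, interferon-inducible GTPase genes, Gzmb, a granzyme, at 22.6, 14.2 and 12.6 CPM in Akkermansia 1, 2 and 3 and 26.4, 40.6 and 9.87 CPM in PBS 1, 2 and 3, and Ly6c2, a differentiation antigen of memory T cells and monocytes, at 39.2, 44.9 and 30.9 CPM in Akkermansia 1, 2 and 3 and 72.8, 48.3 and 12.4 CPM in PBS 1, 2 and 3. The same 8 included mt-Co2, a mitochondrially encoded subunit, which had 37.8, 39.0 and 44.8 CPM in Akkermansia 1, 2 and 3 and 39.5, 143 and 40.0 CPM in PBS 1, 2 and 3.

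At the other end, the 30 genes with the largest difference the other way held 0 of the 38 genes and 0 of the other pathway genes. Among them were the neutrophil granule genes Ltf and Ngp, 7.58 and 6.54 times higher in PBS 3 than in PBS 2, where they had 17 and 22 counts. Both were higher in every Akkermansia library than in any PBS library. In Akkermansia 1, 2 and 3 Ltf had 46.2, 29.2 and 20.3 CPM and Ngp 50.1, 31.8 and 18.7 CPM. Neither passed the edgeR test (adjusted p = 0.103 and 0.0948). The 30 also held activation-induced transcription factor genes. Nr4a3 had 37.8, 45.7 and 42.1 CPM in Akkermansia 1, 2 and 3 and 179, 84.6 and 266 CPM in PBS 1, 2 and 3 (edgeR adjusted p = 0.0642). Fosl2 had 88.8, 82.4 and 82.7 CPM with Akkermansia and 358, 187 and 453 CPM with PBS (edgeR adjusted p = 0.0361). Fosb, also among the 30, had 802, 607 and 477 CPM with Akkermansia and 919, 507 and 957 CPM with PBS (edgeR adjusted p = 0.59), so its groups overlapped. In Nr4a3 and Fosl2 PBS 2 was the PBS library nearest to the Akkermansia group. They were picked for a lower level in PBS 2 than in PBS 3, and every Akkermansia library lay below PBS. That PBS 2 was nearer than PBS 3 thus followed from the choice of genes. In the 38 interferon-stimulated genes PBS 2 was the library with the highest level.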
